A study of Mus musculus with 18 samples.

Results

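The circadian clock genes Arntl, Clock, Npas2, Per1, Per2, Per3, Cry1, Cry2, Nr1d1 and Dbp were examined in adipose tissue of Gm15551 knock out mice and wild type litter mates. They were taken as the rows of the count table that carry 1 of these 10 gene symbols, and all 10 were found among the 54347 rows and passed the filter on low counts. RNA-Seq of polyadenylated RNA was available for interscapular brown (iBAT), inguinal white (iWAT) and epididymal white adipose tissue (eWAT) of 6 mice, which gave 18 libraries in 6 groups of 3. The wild type (wt) and knock out (ko) mice were 12 weeks old, on the C57BL/6N background and kept under a regular light cycle. The methods of the paper state a chow diet for the knock out line in transcriptomics. Its results, however, introduce the adipose tissue transcriptomes as those of animals on a high-fat or a control diet. The ko mice carried a deletion that includes exon 1 of the long noncoding RNA gene Gm15551 in all cells, were made with CRISPR/Cas9 and were backcrossed for 2 generations. Whether they descend from a single founder is not given in the sources used here. Each mouse gave 1 library of each tissue, and mice are named by genotype and replicate number (wt 1 to wt 3, ko 1 to ko 3). The hour at which each mouse was dissected is not given in the sources used here, so no clock time was assigned to any library.

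The circadian clock is a feedback loop of transcription factors that runs through a daily cycle in nearly every cell. ARNTL (BMAL1) pairs with CLOCK or its relative NPAS2 and switches on genes that carry an E-box in their promoter, among them the Per, Cry, Nr1d1 and Dbp genes. PER and CRY proteins then block this activator, NR1D1 (REV-ERB alpha) represses Arntl through an element it shares with the ROR receptors (RORE), and DBP acts on D-box elements in promoters such as that of Per3. Over the day, Arntl and Npas2 transcripts therefore run about opposite to Dbp, Nr1d1 and the Per genes. In adipose tissue the loop paces lipolysis, adipokine release and, in brown fat, heat production.

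Some of these elements can be read in promoter windows of some of the clock genes. RefSeq promoter windows (GRCm38.p6, 250 bases before to 50 after the start) matched 9 of the 10 genes, and Per2 had no entry. Each stretch is shown because it holds the element through which 1 limb of the loop acts, with the element in capitals:
Cry1: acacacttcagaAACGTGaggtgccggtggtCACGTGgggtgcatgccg
Per1: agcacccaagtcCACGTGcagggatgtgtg
Per3: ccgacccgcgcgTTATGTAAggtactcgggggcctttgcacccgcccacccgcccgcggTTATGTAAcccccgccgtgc
Arntl: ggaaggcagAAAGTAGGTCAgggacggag

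The Cry1 stretch (chr10:85185097-85185145, minus strand) holds the E-box CACGTG 60 bases before the start and, at 79 bases before it, the variant CACGTT on the opposite strand. The Per1 stretch (chr11:69098771-69098800, plus strand) holds an E-box 166 bases before the start used for its window. Per1 had 2 windows, and this one lies inside the annotated gene, which begins at chr11:69095217. The other Per1 window held no E-box. The Per3 stretch (chr4:151044804-151044882, minus strand) holds 2 D-boxes with the letters TTATGTAA, at 205 and 158 bases before the start. The Arntl stretch (chr7:113207528-113207556, plus strand) lies in an annotated exon of Arntl and holds a RORE that begins at base 27 after the start. Both strands of all 32851 windows were searched. The E-box was present in 7.15%, the variant in 4.68%, the D-box in 0.938% and the RORE in 0.384% of them. Among the 9 clock genes with a window, the E-box CACGTG was found in Cry1 and Per1 alone, the D-box in Per3 alone and the RORE in Arntl alone. The variant was found in Cry2 and Nr1d1 besides Cry1. The windows of Clock, Npas2 and Dbp held none of these elements. Sequence outside the windows was not searched. The matches are a description of the letters and no evidence of binding in these samples.

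Positions were taken from GENCODE M21 (GRCm38), in which all 10 are protein-coding genes. Arntl (ENSMUSG00000055116.8) lies at chr7:113207465-113314126, Clock (ENSMUSG00000029238.11) at chr5:76209868-76304792 and Npas2 (ENSMUSG00000026077.15) at chr1:39193731-39363236. Per1 (ENSMUSG00000020893.17) lies at chr11:69095217-69109960, Per2 (ENSMUSG00000055866.9) at chr1:91415982-91459324 and Per3 (ENSMUSG00000028957.12) at chr4:151003652-151044665. Cry1 (ENSMUSG00000020038.10) lies at chr10:85131700-85185064, Cry2 (ENSMUSG00000068742.11) at chr2:92403646-92434043, Nr1d1 (ENSMUSG00000020889.11) at chr11:98767932-98775333 and Dbp (ENSMUSG00000059824.12) at chr7:45705088-45710203. Exons of Dbp share 18% of their bases with Sphk2 and those of Nr1d1 share 8.55% with Thra, both on the opposite strand. Because the strand setting of the quantification is not given in the sources used here, reads from these shared stretches cannot be told apart. Sphk2 ranged from 30.3 to 71.0 in CPM (counts scaled to library size) over all libraries and was called between no pair of tissues (edgeR adjusted p 0.207 to 0.726). Thra ranged from 68.1 to 175 CPM and had log2 fold changes of 0.40 (adjusted p 0.0847) in iBAT against iWAT and 0.29 (adjusted p 0.217) against eWAT, beside 0.41 and 0.44 for Nr1d1, none of them called.

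Total counts per library ranged from 14997901 to 34389586, and the smallest count of any clock gene in any library was 16, for Npas2. Gm15551 held 40 to 316 counts in wt and 0 to 4 in ko libraries, as the labels state. The summed CPM of 6 brown adipocyte markers was 5856 to 11223 in iBAT, at most 211 in iWAT and at most 15.3 in eWAT. In 4 libraries, markers of another tissue were high. Lymph node genes, 7 in all, summed to 909 CPM in iWAT wt 3 and 396 CPM in iWAT ko 2 (at most 16.1 CPM elsewhere). Skeletal muscle genes, also 7, summed to 4231 CPM in iWAT ko 1 (at most 21.6 CPM elsewhere). Epididymis genes, 6 in all, summed to 4819 CPM in eWAT ko 3 (at most 16.6 CPM elsewhere). Of these 6 genes, 3 held more than 3 counts in eWAT ko 3, and 4 did in eWAT wt 1 and in eWAT wt 3. Adipocyte markers summed to 7792 and 11484 CPM in the lymph node libraries against 20032 to 22759 CPM in the other iWAT libraries, and to 10164 CPM in eWAT ko 3 against 15569 to 23164 CPM in the other eWAT libraries. Calls of the 10 clock genes between tissues, mice and replicate numbers, and correlations among them, are also given without these 4 libraries. Variance shares between mice, the genes most like Dbp or Arntl and the genes with the smallest p between mice rest on all 18 libraries. The same holds for the results of the further gene lists. In whole tissue, fewer cells of a type and less RNA per cell cannot be told apart.

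**Figure D1:**
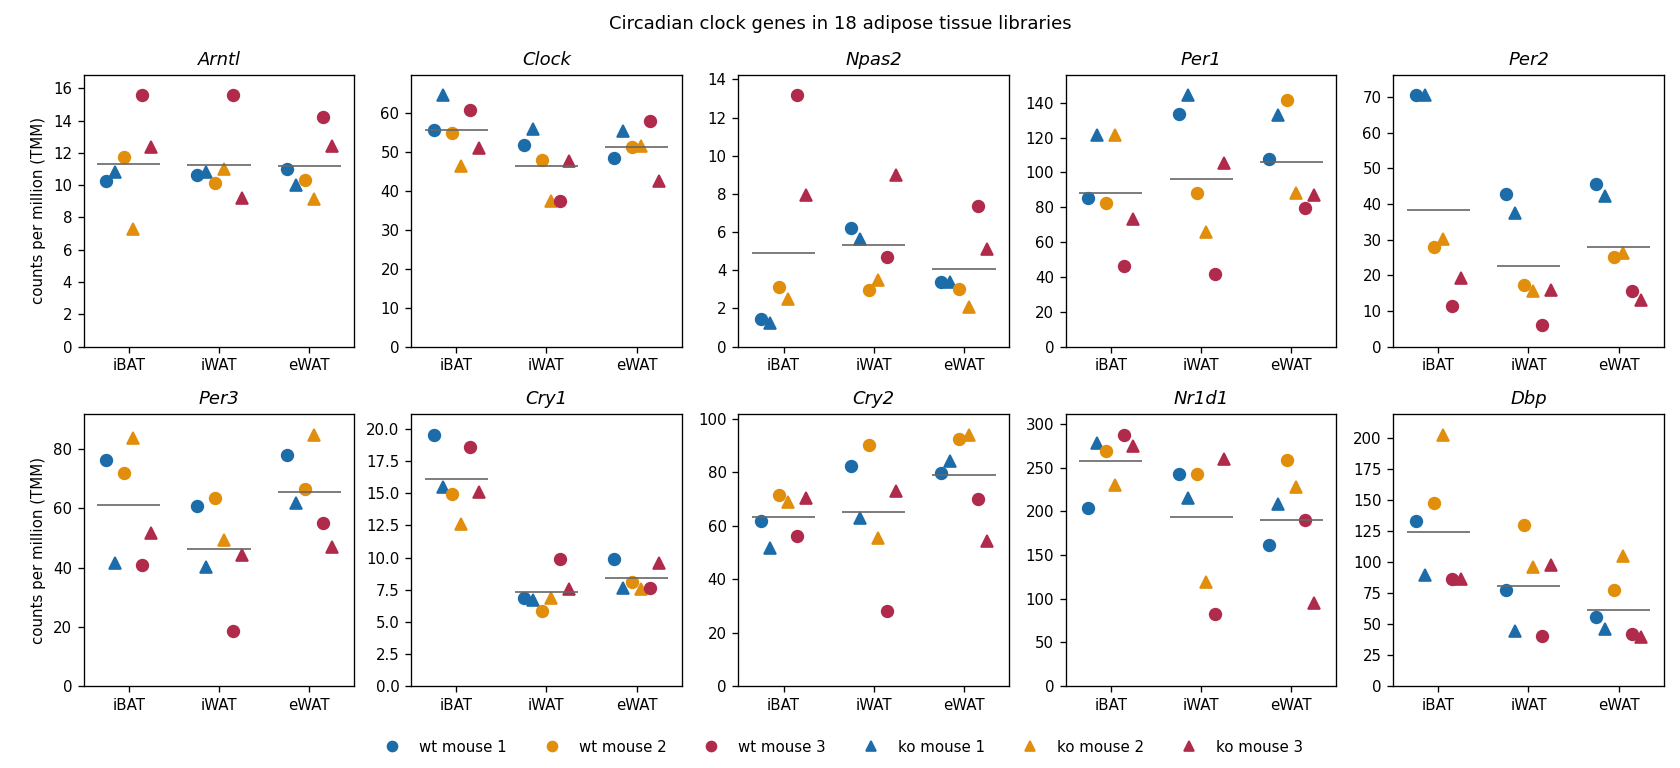
CPM (y axis, from 0) of the 10 clock genes in each of the 18 libraries by tissue (x axis). Colours mark the replicate number, circles wt and triangles ko, and the grey line the mean of the 6 libraries of a tissue. Cry1 was above 12.6 CPM in every iBAT library and below 9.90 CPM in every white one, and Per2 was highest in both mice numbered 1 in each tissue.

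The tissues were compared to see which clock genes differ in level between brown and white fat. Cry1, a repressor of the loop, was the clock gene that separated brown from white fat. Dbp, the output factor acting on D-boxes, was highest in iBAT and lowest in eWAT. The activator genes Arntl, Clock and Npas2 had tissue means within 1.01-fold, 1.2-fold and 1.31-fold of each other.

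In iBAT Cry1 had a median of 15.3 CPM (12.6 to 19.6), in iWAT of 6.83 CPM (5.88 to 9.89) and in eWAT of 7.85 CPM (7.55 to 9.89). No iBAT library overlapped with a white library, while iWAT and eWAT overlapped, with 4 of 6 iWAT libraries below every eWAT library. Cry1 was 2.20-fold higher in iBAT than in iWAT (log2 fold change 1.14, SE 0.14, edgeR adjusted p 3.97e-06) and 1.91-fold higher than in eWAT (0.93, SE 0.14, adjusted p 2.68e-05). It was called in both comparisons under all alternatives run, with log2 fold changes of 1.03 to 1.32 and 0.85 to 1.05. These 2 comparisons share the iBAT libraries.

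In iBAT Dbp had a median of 111 CPM (86.1 to 203), in iWAT of 86.5 CPM (40.2 to 130) and in eWAT of 51.1 CPM (39.7 to 105). The groups overlapped in each comparison. In iBAT it was 2.04-fold higher than in eWAT (log2 fold change 1.03, SE 0.33, adjusted p 0.0136), and the call was lost without mouse wt 1 (0.98, adjusted p 0.0559) and in wt libraries alone (1.07, adjusted p 0.0709). Against iWAT the log2 fold change was 0.62 (SE 0.32, adjusted p 0.115).

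Of all genes tested, 54.3% were called between iBAT and iWAT, 54.6% between iBAT and eWAT and 10.2% between iWAT and eWAT at an adjusted p of 0.05. The clock genes called were 1, 2 and 0 of 10. In the third comparison no clock gene reached an unadjusted p under 0.05 in edgeR, and DESeq2 called 0. The median log2 fold change of the 10 genes was 0.33, 0.19 and -0.15, beside -0.14, -0.17 and 0.01 over all 18728 genes tested.

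Each mouse gave all tissues, so the tissues were also compared within mice by a mouse block. Between iBAT and iWAT this called 5 of 10 clock genes, all higher in iBAT (background 55.6%). Besides Cry1 these were Dbp (log2 fold change 0.64, SE 0.18, adjusted p 0.00797), Per2 (0.73, SE 0.17, adjusted p 0.00293), Per3 (0.42, SE 0.16, adjusted p 0.0413) and Clock (0.26, SE 0.10, adjusted p 0.0412). Between iBAT and eWAT it called Cry1 and Dbp again (background 55.7%), with Dbp at an adjusted p of 2.56e-04. Between iWAT and eWAT it called 1 gene, Per3, lower in iWAT by a log2 fold change of -0.57 (SE 0.16, adjusted p 0.0467, background 9.25%).

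Without the 4 libraries with other tissue, the same block called 3 of 10 clock genes between iBAT and iWAT (background 44.2%). Cry1 and Per2 (0.54, SE 0.18, adjusted p 0.0363) stayed higher in iBAT, Cry2 was lower by -0.31 (SE 0.10, adjusted p 0.024), and Dbp (0.26, adjusted p 0.154), Per3 and Clock were not called. Between iBAT and eWAT 4 of 10 were called (background 59.1%): Cry1, Dbp (0.98, SE 0.11, adjusted p 2.21e-05) and Nr1d1 (0.28, SE 0.11, adjusted p 0.0441) were higher in iBAT, and Cry2 was lower (-0.42, SE 0.08, adjusted p 9.67e-04). Between iWAT and eWAT, Dbp was the 1 clock gene called (background 9.97%), higher in iWAT by 0.72 (SE 0.15, adjusted p 0.0139). Cry1 and Cry2, which code for related repressors, thus differed from white fat in opposite directions in these 14 libraries.

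**Figure D2:**
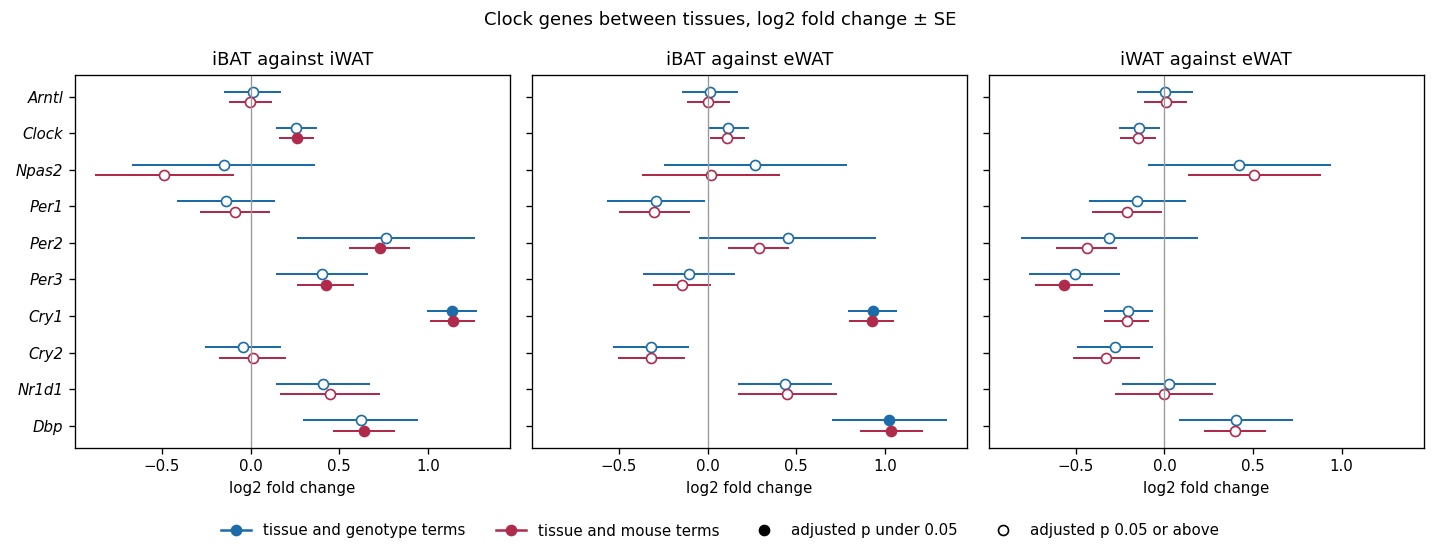
Log2 fold change (x axis) ± SE of each clock gene between tissues, from the fit with tissue and genotype terms (blue) and with tissue and mouse terms (red), all 18 libraries. Filled points have an adjusted p under 0.05. The error bars of Per2 and Dbp are about 0.50 and 0.32 in the first fit and 0.17 and 0.18 in the second.

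The order of the tissues differed from gene to gene. Means are given for iBAT, iWAT and eWAT in turn (± SD, n = 6). Per1 lay at 88.5 ± 29.1, 96.5 ± 39.5 and 106 ± 25.9 CPM. Cry2 lay at 63.4 ± 8.09, 65.2 ± 22.2 and 79.1 ± 15.05 CPM. Nr1d1, the repressor of Arntl, lay at 257 ± 32.7, 194 ± 74.3 and 190 ± 57.3 CPM. For these genes no neighbours in the order differed beyond the spread when all 18 libraries were used. Arntl was the most even, at 11.3 ± 2.72, 11.2 ± 2.23 and 11.2 ± 1.84 CPM.

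Other genes of the clock were also compared between tissues. Of 18 further clock genes, 9 were higher and 2 lower in iBAT than in iWAT, and again 9 were higher and 2 lower in iBAT than in eWAT. The 11 of 18 called in each comparison lie near the background of 54.3% and 54.6%. The median log2 fold change of the 18 genes was 0.45 and 0.67, beside -0.14 and -0.17 over all genes. With the mouse block 10 and 11 of 18 were called. Ciart, a repressor of the ARNTL and CLOCK pair, was higher by a log2 fold change of 2.40 (SE 0.32, adjusted p 9.84e-06) against iWAT and 2.33 (SE 0.32, adjusted p 1.09e-05) against eWAT. Cipc, a partner of CLOCK that inhibits it, was higher by 0.90 (SE 0.08) and 0.86 (SE 0.08). Rora, a ROR receptor, was lower, with log2 fold changes of -0.61 (SE 0.21) and -0.52 (SE 0.21), and against eWAT the mouse block lost this call (adjusted p 0.0558). Nr1d2, the paralogue of Nr1d1, was higher by 0.60 (SE 0.14) and 0.66 (SE 0.14). Nfil3, which competes with DBP at D-boxes, was higher by 1.23 (SE 0.31) and 1.91 (SE 0.31), and Hlf, a relative of Dbp, by 1.15 (SE 0.40) and 1.41 (SE 0.41). Between iWAT and eWAT 2 of 18 were called against a background of 10.2%, both higher in iWAT, among them Arntl2, a relative of Arntl.

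Of 8 genes known as clock outputs, 4 were higher in iBAT than in iWAT (Nampt, Alas1, Lpin1 and Pdk4), and 3 were higher than in eWAT (Nampt, Lpin1 and Pdk4), where 54.3% and 54.6% of all genes were called, so the counts do not exceed the background. Nampt, the enzyme that limits NAD salvage, was higher by a log2 fold change of 1.86 (SE 0.18) and 1.73 (SE 0.18). Pdk4, a kinase that restrains pyruvate oxidation, was higher by 4.37 (SE 0.53) and 5.98 (SE 0.57), and by 1.61 (SE 0.48) in iWAT over eWAT.

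The libraries were then compared by mouse, to ask whether the 3 tissues of a mouse deviated together from the tissue means. Per2, a repressor of the loop whose transcript has a wide daily rhythm, did so most clearly. In mice wt 1 and ko 1 it lay well above the other mice in each tissue, and in wt 3 it lay below every mouse numbered 1 or 2 in each tissue. Dbp was highest in the mice numbered 2, and Npas2, an activator, in the mice numbered 3.

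In the following, the values of a mouse are given for iBAT, iWAT and eWAT in turn. Per2 was at 70.6, 42.8 and 45.5 CPM in wt 1, and at 70.6, 37.5 and 42.3 CPM in ko 1. In wt 2 it was at 27.9, 17.3 and 25.04 CPM, and in ko 2 at 30.1, 15.5 and 26.2 CPM. In wt 3 it was at 11.4, 6.10 and 15.6 CPM, and in ko 3 at 19.2, 16.0 and 13.0 CPM. In all tissues both mice numbered 1 were above all others, and in iBAT and eWAT both mice numbered 2 were above both numbered 3. The summed brown adipocyte markers of iBAT followed the same order of numbers, at 9869 and 11223 CPM in wt 1 and ko 1, 8078 and 9198 CPM in wt 2 and ko 2, and 6364 and 5856 CPM in wt 3 and ko 3, and their part in the Per2 values was not tested. The mouse terms of Per2 were significant (edgeR F 26.7, p 2.34e-06, adjusted p 0.00439), the tenth smallest p of all genes. Mice accounted for 92.5% of the variance of Per2 within tissues, beside a median of 38.8% over all genes tested.

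At an adjusted p of 0.05, 0.155% of all genes were called between mice, and Per2 was the 1 clock gene among them. Without the 4 libraries with other tissue, Per2 (adjusted p 0.0117) and Dbp (adjusted p 0.0273) were called (background 0.541%). The call of Per2 was lost without mouse wt 1 (adjusted p 0.0595), without iBAT (0.618) and without iWAT (0.136). It was kept without eWAT (background 0.0843%) and without any other single mouse (background 0.0654% to 0.233%). All these fits hold fewer libraries, and the part of this in the lost calls was not tested. DESeq2 called Arntl, Npas2, Per1, Per2, Per3 and Dbp against a background of 8.63%. The same 6 of 10 clock genes had an unadjusted p under 0.05 in edgeR, beside 13.9% of all genes, and the remaining 4, Clock, Cry1, Cry2 and Nr1d1, had an unadjusted p of 0.192 to 0.783.

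Dbp was at 148, 130 and 77.6 CPM in wt 2, and at 203, 95.8 and 105 CPM in ko 2. In wt 1 it was at 133, 77.1 and 55.9 CPM, and in ko 1 at 89.7, 44.1 and 46.3 CPM. In wt 3 it was at 86.1, 40.2 and 41.8 CPM, and in ko 3 at 86.4, 98.0 and 39.7 CPM. Both mice numbered 2 were above all others in iBAT and eWAT, but in iWAT ko 3 lay above ko 2, the library with lymph node markers. The summed brown adipocyte markers ordered the 6 iWAT libraries as Dbp did, at 211, 189, 89.8, 61.4, 49.8 and 15.8 CPM in wt 2, ko 3, ko 2, wt 1, ko 1 and wt 3, and their part in the Dbp values was not tested. With all libraries, the mouse terms of Dbp had an unadjusted p of 7.59e-04 and missed the threshold after adjustment (adjusted p 0.115), but passed it without iWAT (adjusted p 0.0469, background 0.0286%) and without mouse ko 3 (adjusted p 0.0308, background 0.233%), while mice accounted for 79.5% of its variance within tissues.

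Npas2 was at 13.2, 4.72 and 7.36 CPM in wt 3, and at 7.92, 8.99 and 5.10 CPM in ko 3. In the other 4 mice it was at 1.25 to 3.11, 2.97 to 6.20 and 2.09 to 3.39 CPM. Thus Npas2 spanned 10.5-fold in iBAT, more than any other clock gene in any tissue. In iBAT and eWAT both mice numbered 3 were above the others, but in iWAT wt 3 was not. The adjusted p of its mouse terms was 0.292.

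Arntl was highest in wt 3 in every tissue, at 15.6, 15.6 and 14.2 CPM, where the other mice had at most 12.4 CPM. Per1 was lowest in wt 3 in every tissue, at 46.5, 41.7 and 79.6 CPM, and its highest values were 122, 145 and 142 CPM. Per3 spanned 40.9 to 83.9, 18.7 to 63.6 and 47.1 to 85.0 CPM. Its lowest library was wt 3 in iBAT and iWAT and ko 3 in eWAT. Mice accounted for 72.1%, 68.2% and 73.7% of the variance of Arntl, Per1 and Per3 within tissues, with adjusted p-values of 0.276, 0.256 and 0.197 for the mouse terms.

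Nr1d1 was the least tied to the mouse, with 20.9% of its variance between mice. In iBAT it stayed within 204 to 288 CPM. Its low values were 82.6 CPM in iWAT wt 3, 119 CPM in iWAT ko 2 and 94.7 CPM in eWAT ko 3, the libraries with markers of lymph node or epididymis, and the other white libraries held 162 to 260 CPM. Cry2 was likewise lowest in iWAT wt 3 (28.1 CPM), iWAT ko 2 (55.3 CPM) and eWAT ko 3 (54.1 CPM) of the white libraries. The part of other tissue in these low values was not tested.

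**Figure D3:**
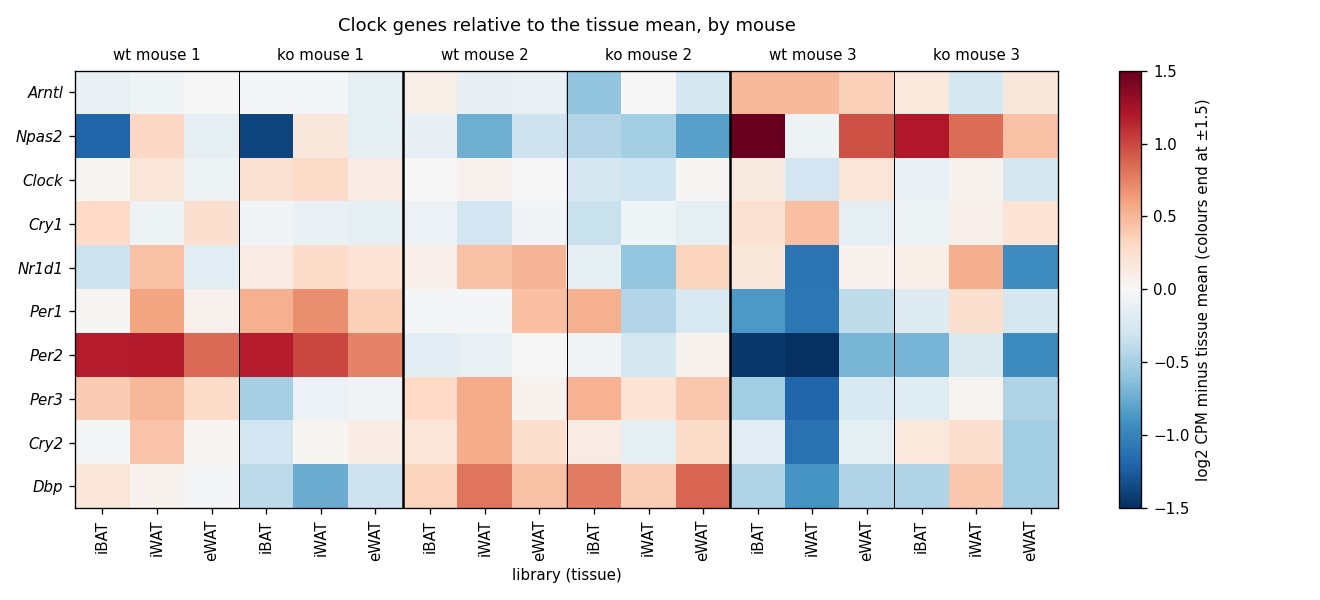
Log2 CPM minus the tissue mean (colour, ending at ±1.5) of each clock gene (rows) in the 18 libraries (columns), ordered by mouse. The 3 tissues of mice wt 1 and ko 1 are high in Per2, those of wt 2 and ko 2 high in Dbp, and those of wt 3 low in Per2, Per1 and Dbp and high in Arntl.

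After these values were seen, mice of the same number were compared over both genotypes within the mouse model. No meaning of the numbers is stated in the labels beyond the mouse, so this comparison describes the 6 mice and no treatment. The grouping was chosen from the same values of Per2 and Dbp, so their calls are no independent support for it. Each number joins a wt and a ko mouse, and the p-values measure the spread within mice across tissues. Of all genes, 1.79% were called between the 3 numbers, among them Per2 (adjusted p 9.64e-04) and Dbp (adjusted p 0.0247). Mice 3 were lower than mice 1 in Per2 by a log2 fold change of -1.93 (SE 0.18, adjusted p 6.17e-04), a call lost without iBAT (-1.77, adjusted p 0.0797), and in Per1 by -0.79 (SE 0.20, adjusted p 0.0352), where 6.32% of genes were called. The call of Per1 was lost without the 4 libraries with other tissue (-0.64, adjusted p 0.087) and without any 1 of the tissues (adjusted p 0.0716 to 0.203). Mice 2 were lower than mice 1 in Per2 by -1.12 (SE 0.17, adjusted p 0.0357), where 0.101% were called, a call lost without iBAT (-1.04, adjusted p 0.608) and without iWAT (-1.06, adjusted p 0.373). Dbp lay at 0.82 (SE 0.18, adjusted p 0.0992) between mice 2 and mice 1, and at 0.81 (adjusted p 0.0143) without the 4 libraries, where 0.714% were called. Without the 4 libraries with other tissue, Npas2 (adjusted p 0.0381) and Per3 (adjusted p 0.0333) were called between numbers beside Per2 (0.00279) and Dbp (0.00582), against 2.8% of all genes. Without iBAT 0 clock genes were called by edgeR (Per2 unadjusted p 4.03e-04, adjusted p 0.169), and without eWAT Dbp lost its call between numbers (adjusted p 0.149).

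**Figure D4:**
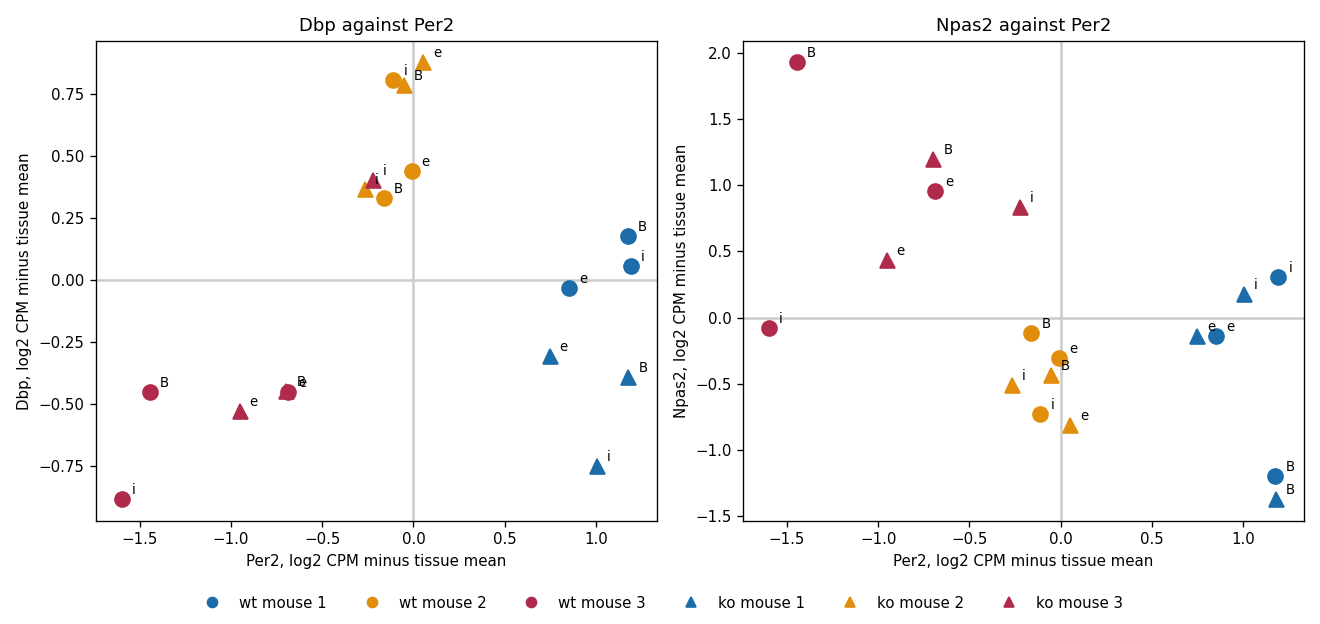
Deviation of Dbp (left) and Npas2 (right) against that of Per2, each as log2 CPM minus the tissue mean, in 18 libraries labelled B (iBAT), i (iWAT) or e (eWAT). Mice numbered 1 lie to the right in Per2, mice numbered 2 near 0 in Per2 and above 0 in Dbp, and mice numbered 3 to the left, apart from iWAT ko 3, which lies beside the mice numbered 2 in Per2 and in Dbp.

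Across the 18 libraries, after centring within tissues, some clock genes deviated together. Per3 and Cry2 had a Pearson r of 0.86, Per3 and Dbp of 0.81, and Per1 and Per2 of 0.81. Arntl ran against Per3 (-0.74), Dbp (-0.73) and Per1 (-0.73). Without the 4 libraries with other tissue these values were 0.70, 0.76, 0.72, -0.62, -0.72 and -0.69. Arntl and Nr1d1 had an r of -0.39 in all 18 libraries and of 0.16 without these 4. Nr1d1 and Cry2 had an r of 0.84 in all 18 libraries and of 0.17 without these 4, and Clock and Nr1d1 of 0.74 and 0.27. These are descriptions, since the libraries of a mouse share the animal. Outside the 10 genes, those most like Dbp were Tro, Plekhh3, Cntnap1, Zfta, Car11, Tob1, Bhlhe41 and Mlx, with r from 0.80 to 0.85, and the most opposed was Bnip1 (-0.88). Most like Arntl were Cabp7 (0.89), Smc3 (0.85) and Sp1 (0.85), and among the 8 genes most opposed to it was Tef (-0.80), a relative of Dbp.

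The mice were also compared in further lists. None of the 18 further clock genes and none of the 8 output genes was called between mice by edgeR after adjustment, and 5 and 2 of them had an unadjusted p under 0.05, beside 13.9% of all genes. Bhlhe41, an E-box repressor, had an adjusted p of 0.115, Tef of 0.20 and Usp2, a deubiquitinase with a daily rhythm, of 0.208. Of 6 genes induced by glucocorticoids, hormones that themselves follow the day, 0 were called and 3 had an unadjusted p under 0.05 against the same background, among them Tsc22d3 (adjusted p 0.0927). Between mice 3 and mice 1, Tef was the 1 of the 18 called (-0.65, SE 0.16, adjusted p 0.0314, background 6.32%). Between replicate numbers Tsc22d3, a glucocorticoid-induced leucine zipper gene, was the 1 gene of the 6 called (adjusted p 0.0193, background 1.79%), with mice 3 below mice 1 by a log2 fold change of -1.23 (SE 0.20). Of the 6 genes, 3 had a higher level in mice 3 than in mice 1, and the median log2 fold change was -0.15. Tsc22d3 was at 99.5, 182 and 194 CPM in wt 1, and at 118, 273 and 349 CPM in ko 1. In wt 2 it was at 65.8, 75.7 and 154 CPM, and in ko 2 at 76.5, 135 and 163 CPM. In wt 3 it was at 76.7, 84.2 and 118 CPM, and in ko 3 at 76.0, 56.0 and 68.6 CPM. In all tissues both mice numbered 1 were above all others, while mice numbered 2 and 3 overlapped in iBAT and iWAT.

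The genotypes were compared to see whether the loss of Gm15551 moves the clock genes. No clock gene was called in any genotype comparison. Across tissues 0 of 10 were called by edgeR, 0 had an unadjusted p under 0.05 and DESeq2 called 0, where 0.00534% of all genes were called, which is Gm15551 alone. Within iBAT and iWAT 0% of genes were called, within eWAT 0.00534%, and for the interaction of genotype with tissue 0%. The counts of clock genes were 0 at an unadjusted p under 0.05 and 0 by DESeq2 in each of these. The median log2 fold change of the clock genes was -0.04 across tissues, beside 0.00 over all genes.

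Arntl had the smallest p across tissues, with a log2 fold change of -0.23 (SE 0.13, unadjusted p 0.09, adjusted p 0.9999), which was -0.05 without mouse wt 3. In wt mice it ranged from 10.2 to 15.6 CPM and in ko mice from 7.29 to 12.4 CPM over all tissues, so the groups overlapped, and the highest wt values were those of mouse wt 3. Per1 had the largest positive change (0.24, SE 0.22, unadjusted p 0.299), which was -0.02 without mouse wt 3. Per2, the gene that differed most between mice, lay at 36.6 ± 30.5 CPM in wt and 40.0 ± 27.1 CPM in ko iBAT (SD, n = 3). The SE of its genotype effect was 0.75 within a tissue, so changes of that size were not detectable there. The largest SE within a tissue was 0.76, for Npas2, and the smallest was 0.17, for Clock.

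**Figure D5:**
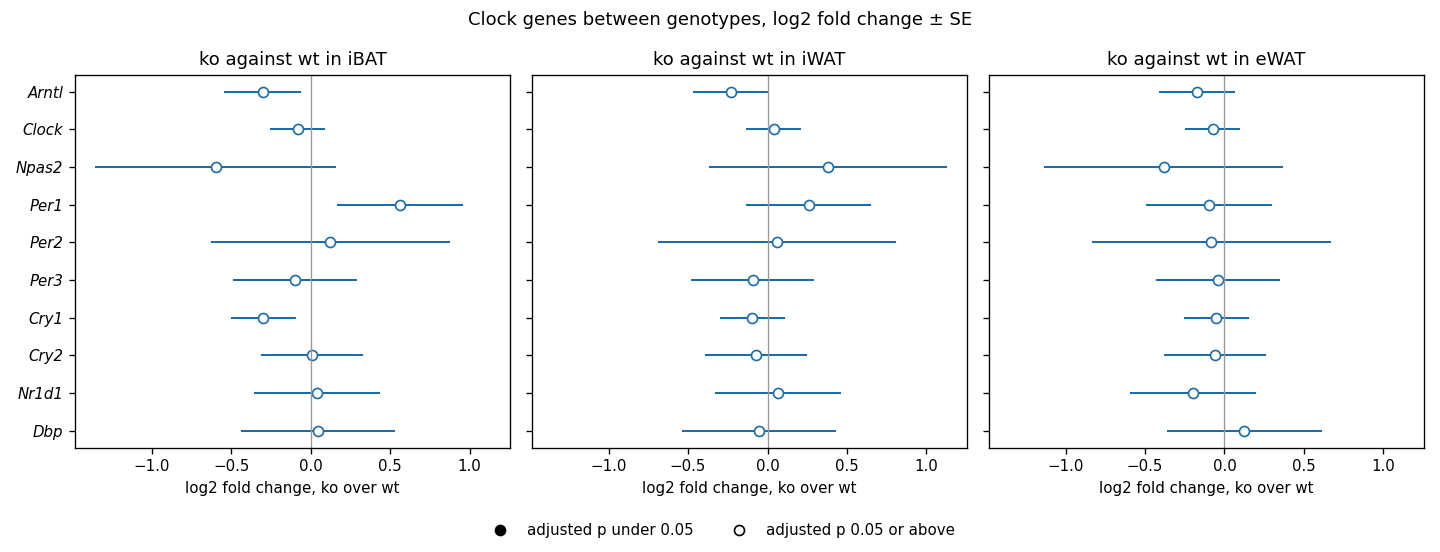
Log2 fold change (x axis) ± SE of each clock gene between ko and wt mice in each tissue, 3 libraries against 3, with the spread shared over the 6 groups. All points are open, since 0 of 10 genes passed an adjusted p of 0.05, and the bars of Npas2 and Per2 are the widest.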

How the data were processed

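Total RNA of frozen tissue was made into NEBNext Ultra II libraries and sequenced in pairs. Reads were trimmed by cutadapt and assigned by salmon to GENCODE M22 transcripts (GRCm38), with or without RNAcentral. The authors deposited estimated counts, written as whole numbers and not normalised. Which reference was used and the strand setting are not given in the sources used here. Estimated counts divide reads shared by near-identical genes by a model.

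All 10 clock genes and the further lists were chosen with earlier results of these data known. All tests are quasi-likelihood F-tests (edgeR 4.0.16, R 4.3.3), after filterByExpr by group (18728 genes) and scaling by the trimmed mean of M values (TMM), which also scales all CPM. Models held tissue and genotype terms (tissue contrasts, genotype across tissues), 1 mean per group (genotype within tissues, interaction) or tissue and mouse terms (the mouse block, and the joint test of 5 mouse terms). The mouse block rests on the mouse identifiers in the labels, which are the same for the 3 tissues of a genotype and replicate number. P-values were adjusted by Benjamini-Hochberg over all genes, with a threshold of 0.05. The SE was obtained from the log2 fold change and F (absolute change over root F). Deviations from tissue means and their variance between mice used log2 CPM with a prior count of 2. A count of 0 allows up to 3 counts, or 0.0728 to 0.235 CPM, which covers counting error only. Each group holds 3 mice. Fits without mouse terms count the 3 libraries of a mouse as separate samples, and p-values of fits with mouse terms measure the spread within mice across tissues.

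Named genes were the 10 clock genes, 18 further clock, 8 output and 6 glucocorticoid-induced genes, Gm15551, the 8 genes most and least correlated with Arntl and Dbp, and the 10 smallest p between mice. Alternatives were DESeq2 size factors, no filter, DESeq2 1.42.0, 10 or more counts required in each library, counts summed per mouse, voom of limma 3.58.1 with mouse as a random effect, replicate or mouse blocks, wt libraries only, 1 tissue only, mice within genotype, and leaving out each mouse, library or tissue, or the 4 libraries with other tissue. The comparison of replicate numbers, the mouse block without these 4 libraries and the counts at an unadjusted p between mice were chosen after seeing the data. The values of 1 further clock gene are not reported here, although the counts include it. The scripts were tested on simulated data.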

Additional observations from a re-analysis of the deposited data

Results flagged for a closer look

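In 2 of 30 sets of 6 libraries, each clock gene in each tissue, the library farthest from the others stood apart by Dixon's criterion, which sets the gap to its neighbour against the whole range. Both were iWAT wt 3, the library with the most lymph node markers. Arntl was highest there, with a gap of 0.664 of the range, and Per3 was lowest there, with a gap of 0.629. Chance flags about 1 in 20 sets. The part of lymph node in these values was not tested. Arntl was also highest in wt 3 in iBAT and eWAT, where 15.6 and 14.2 CPM compare with at most 12.4 CPM in the other mice.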

How the results depend on the processing

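Between iBAT and iWAT, 2 clock genes rather than 1 were called with DESeq2 size factors (54.2% of all genes), DESeq2 (55.3%) or without the 4 libraries with other tissue (45.3%), 5 with the mouse block (55.6%) and 3 with that block without these 4 libraries (44.2%). Between iBAT and eWAT, 1 rather than 2 was called in wt libraries alone (37.7%), 1 to 2 leaving out a mouse (46% to 51.8%), 3 without these 4 libraries (57.1%) and 4 with the block without them (59.1%), and between iWAT and eWAT 1 rather than 0 with the block, with or without them (9.25% and 9.97%). Between mice, 6 rather than 1 were called by DESeq2 (8.63%), 2 without the 4 libraries (0.541%), 0 without iBAT (0.00543%), 1 without iWAT (0.0286%), which was Dbp in place of Per2, and 0 to 2 leaving out a mouse (0.0616% to 0.233%). Replicate numbers alone gave 2 (1.79%), 4 without the 4 libraries (2.8%), 2 without iWAT (0.0514%), 1 without eWAT (0.613%) and 0 without iBAT (0.0434%). Some of these fits hold fewer libraries, and the cause of these changes was not tested. The log2 fold change of Cry2 between iBAT and iWAT, -0.04, was -0.37 without the 4 libraries, where it was called (adjusted p 0.025), and 0.011 with the mouse block, and ranged from -0.155 to 0.0507 leaving out a mouse. That of Per1 between genotypes, 0.24, ranged from -0.0178 to 0.423 leaving out a mouse. All genotype counts stayed at 0 in 13 or 14 alternatives each, the replicate block included. Deviations of same-numbered wt and ko libraries correlated from -0.47 to 0.55, over 0.1 in 4 of 9 pairs, so the numbers were not taken as pairs. Npas2 had counts of 16 to 245 and Per2 of 176 to 1318, with a largest SE between genotypes within a tissue of 0.76 and 0.75. The part of depth in these errors was not tested.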

Other observations

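The 10 genes with the smallest p between mice were Capn11, Eps8l1, Gm15551, Slc15a2, Eif2s3y, Cish, Adam7, Bcl6, Serpina3k and Per2, with edgeR adjusted p-values from 0.00127 to 0.00439. Gm15551 separates the genotypes, and Adam7, an epididymis gene, is high in ko 3, the mouse whose eWAT library held epididymis markers. Cish, an inhibitor of cytokine and growth hormone signalling, had a mean over the 3 tissues of 119 CPM in wt 3, 52.4 CPM in ko 3, 34.7 CPM in ko 2 and 16.5 CPM in wt 1, and of 5.44 and 5.04 CPM in wt 2 and ko 1. Bcl6, a transcriptional repressor, was at 152 CPM in wt 2 and at 34.1 to 62.3 CPM in the other mice. Serpina3k, a serine protease inhibitor, was at 1.78 and 1.31 CPM in wt 1 and ko 1 and at 15.8 to 27.4 CPM in the other mice. Per2 was at 53.0 and 50.2 CPM in wt 1 and ko 1 and at 11.03 to 23.9 CPM in the others. For Serpina3k and Per2 both mice numbered 1 therefore stood on 1 side of all other mice.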
